A study of Homo sapiens with 6 samples.

Results

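The Hippo effectors YAP1 and WWTR1 (which encodes TAZ), their DNA-binding partners TEAD1, TEAD3 and TEAD4, and the target genes CCN1, CCN2, ANKRD1, AMOTL2 and LATS2 were followed in IMR-90 human fetal lung fibroblasts with and without induction of a hairpin against ZNF469. These 10 genes were chosen by symbol from the 23754 features of the deposited count table, which lists CCN1 as CYR61 and CCN2 as CTGF, and all 10 were found. IMR-90 is a line of lung fibroblasts. By the study's methods, the cells of both groups carried a lentiviral, doxycycline-inducible Tet-pLKO-puro cassette with the sh-2 hairpin and were a puromycin-selected population. The 3 Sh-ZNF469 libraries came from cells given 2 µg/mL doxycycline for 4 days (DOX+), and the 3 Control libraries from the same line without doxycycline (DOX–). The submitted labels call the Control genotype wild-type, whereas the study's methods describe the uninduced line. If the labels hold, transduction and puromycin selection also differed between the groups and cannot be told apart from the knockdown. Doxycycline and induction of the hairpin came together in every DOX+ library and in no DOX– library, so their effects cannot be told apart here. The study reports that collagen production was unchanged by doxycycline alone or by lentiviral transduction alone. Its text gives no such control for these 10 genes. The submitted design text calls the libraries technical replicates, so p-values may measure only technical spread.

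YAP and TAZ are transcriptional coactivators that do not bind DNA themselves. When the upstream Hippo kinases are active, LATS kinases phosphorylate YAP and TAZ, which are then held in the cytoplasm or degraded; when they are not, YAP and TAZ enter the nucleus and act through TEAD proteins, which recognise a short motif in promoters and enhancers. Stiff matrix and cell spreading favour the nuclear form, and in lung fibroblasts the pathway is best known for its part in matrix production and contractility. LATS2 and AMOTL2 are both targets and brakes of the pathway, so they form a negative feedback. The libraries measure mRNA only; phosphorylation and location of YAP and TAZ were not measured.

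The core TEAD motif GGAATG was searched, together with its reverse complement, in the 250 bases before the RefSeq transcription start (GRCh38.p14), because the readout of the pathway is the expression of genes with such elements. RefSeq windows were at hand for 7 of the 10 genes (9 windows, with more than 1 start for WWTR1 and AMOTL2); CCN1, TEAD1 and TEAD4 had no entry. The windows that held a match are shown 5′ to 3′ on the strand of the gene, in lower case with the motif in capitals (for AMOTL2 the match is to the reverse complement, CATTCC):
CCN2: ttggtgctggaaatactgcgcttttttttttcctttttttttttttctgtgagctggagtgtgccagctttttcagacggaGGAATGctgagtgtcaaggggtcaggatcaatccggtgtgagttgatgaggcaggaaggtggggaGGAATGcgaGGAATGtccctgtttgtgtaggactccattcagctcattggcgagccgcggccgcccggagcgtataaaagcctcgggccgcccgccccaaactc
ANKRD1: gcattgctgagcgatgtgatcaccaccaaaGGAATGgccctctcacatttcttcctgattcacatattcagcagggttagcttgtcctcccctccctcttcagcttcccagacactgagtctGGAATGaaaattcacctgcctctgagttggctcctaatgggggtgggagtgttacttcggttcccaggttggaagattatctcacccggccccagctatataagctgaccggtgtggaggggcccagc
YAP1: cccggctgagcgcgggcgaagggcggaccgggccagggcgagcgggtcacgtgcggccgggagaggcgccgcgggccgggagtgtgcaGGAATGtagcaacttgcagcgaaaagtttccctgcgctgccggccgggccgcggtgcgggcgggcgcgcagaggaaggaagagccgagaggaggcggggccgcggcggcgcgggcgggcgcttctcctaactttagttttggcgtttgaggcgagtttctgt
AMOTL2: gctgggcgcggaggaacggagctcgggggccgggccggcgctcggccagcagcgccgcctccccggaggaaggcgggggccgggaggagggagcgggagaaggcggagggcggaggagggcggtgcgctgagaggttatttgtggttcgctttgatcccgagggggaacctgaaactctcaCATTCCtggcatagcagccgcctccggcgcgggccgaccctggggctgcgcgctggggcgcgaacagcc
The CCN2 window (chr6:131951373-131951622, minus strand) held 3 matches, which began 169, 104 and 95 bases before the start. In the ANKRD1 window (chr10:90921088-90921337, minus strand) 2 matches began 220 and 128 bases before the start. The YAP1 window (chr11:102110197-102110446, plus strand) and 1 of the AMOTL2 windows (chr3:134374448-134374697, minus strand) held 1 match each, 162 and 69 bases before their starts. Over all 35116 RefSeq windows of this length, 11.9% held at least 1 match, 0.928% at least 2 and 0.0797% at least 3. A match is a description of the letters and not evidence of binding. The windows of WWTR1, TEAD3 and LATS2 and the other AMOTL2 window held none of these letters.

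The libraries held 34057675 to 36120260 counts each. Chi-square values per degree of freedom between libraries of the same group were 4.65 to 8.47, more than counting noise, so no library repeated another. The target ZNF469 (ENSG00000225614, chr16:88382959-88440757, GRCh38) was at 118, 112 and 126 CPM (counts scaled to a common library size with TMM factors) in DOX– libraries and at 80.4, 80.4 and 79.6 CPM in DOX+ libraries, which is 67.5% of the DOX– level (log2 fold change −0.57, standard error 0.0477, edgeR adjusted p = 3.31e-05). DOX+ replicate 2 stood apart on the first principal component: it scored 32.8, and the remaining libraries scored between −12.6 and 0.524. The counts of calls, the fold changes of the 10 genes, the TEAD shares and the coactivator ratio were therefore also computed without it. All 10 fibroblast markers were tested, and 5 were called lower in DOX+ cells (COL1A1, COL1A2, COL3A1, DCN and LUM), against 0.715% of all features. The other markers were not called, with log2 fold changes of −0.003 (PDGFRA), −0.016 (PDGFRB), 0.037 (THY1), −0.02 (VIM) and 0.042 (FAP). All 10 summed to 8526 to 8588 FPKM (fragments scaled by transcript length and library size) in DOX– and 7309 to 7395 FPKM in DOX+ libraries. Most of the difference between these sums came from COL1A1 and COL1A2, with log2 fold changes of −0.69 and −0.505. The 6 epithelial markers summed to at most 0.223 FPKM in any library. Endothelial markers summed to 3.71 to 4.69 FPKM in DOX– and 4.04 to 4.63 FPKM in DOX+ libraries, with PECAM1 and CDH5 at 0 counts in all libraries. Nearly all of these sums was TEK, at 3.83, 4.61 and 3.66 FPKM in DOX– and 3.99, 3.97 and 4.54 FPKM in DOX+ libraries. For immune markers the sums were 29.4 to 32.4 FPKM and 29.6 to 32.3 FPKM, with CD3E and MS4A1 at 0. They were almost wholly CD68, at 32.4, 29.3 and 31.2 FPKM in DOX– and 29.7, 29.5 and 32.2 FPKM in DOX+ libraries. PTPRC reached at most 0.0266 FPKM and CD14 at most 0.0917 FPKM in any library. The 2 smooth muscle markers, MYH11 and DES, summed to 0.464 to 0.560 FPKM in DOX– and 0.563 to 0.685 FPKM in DOX+ libraries, near 0 in both. The contractile genes TAGLN, ACTG2, CNN1 and MYL9, not in this pair, were abundant, at 2320, 321, 126 and 448 FPKM in DOX– replicate 1. The part of these marker differences in the results was not tested.

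Per length, the secreted targets were the most abundant of the 10 transcripts in these fibroblasts and TEAD4 the least. In DOX– cells CCN2 stood at 459 ± 4.33 FPKM (SD, n = 3) and CCN1 at 287 ± 5.87 FPKM (SD, n = 3), whereas TEAD4 stood at 8.29 ± 0.379 FPKM (SD, n = 3), a range of 55.4-fold in mean FPKM. AMOTL2 followed at 76.0 ± 1.502 FPKM (SD, n = 3), then YAP1 at 57.4 ± 6.19 FPKM (SD, n = 3) and TEAD1 at 33.7 ± 1.14 FPKM (SD, n = 3). These 5 and the next in order, WWTR1 at 21.6 ± 0.662 FPKM (SD, n = 3), were separated from their neighbours in every DOX– library. TEAD3 at 19.8 ± 0.902, LATS2 at 19.3 ± 0.472 and ANKRD1 at 18.6 ± 0.456 FPKM (SD, n = 3 for each) overlapped, so their order within DOX– cells is not resolved. In DOX+ cells WWTR1, TEAD3 and LATS2 overlapped, while ANKRD1 lay below all LATS2 values. Thus YAP1 was the more abundant coactivator transcript and TEAD1 the most abundant TEAD in all 6 libraries.

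**Figure D1:**
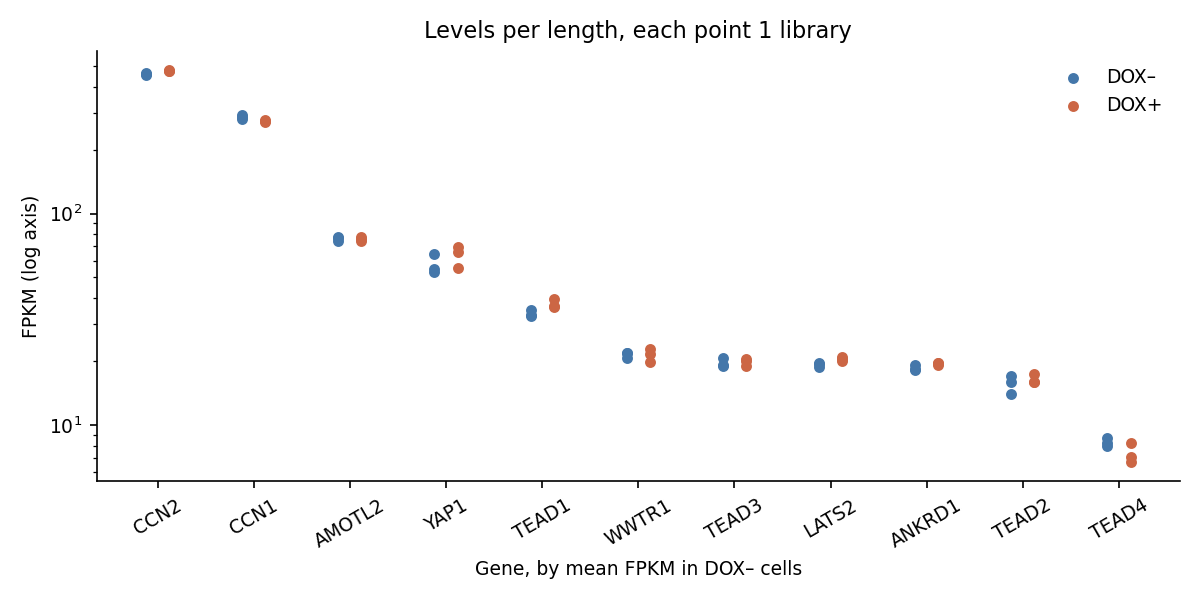
FPKM of the 10 genes and TEAD2 (log axis) in each of the 3 DOX– and 3 DOX+ libraries, ordered by the DOX– mean; each point is 1 library. CCN2 and CCN1 lie highest (459 and 287 FPKM in DOX– cells), TEAD4 lowest (8.29 FPKM), and for each gene the groups lie close together beside the spread between genes.

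The FPKM values of YAP1 carried a spread that its counts did not. YAP1 had 53.2, 64.5 and 54.5 FPKM in DOX– replicates 1, 2 and 3 and 65.8, 69.7 and 55.4 FPKM in DOX+ replicates 1, 2 and 3, yet its CPM differed by a few percent. The number of counts behind 1 FPKM, relative to the median gene of the library, was 1.60, 1.32 and 1.56 in DOX– libraries and 1.36, 1.33 and 1.59 in DOX+ libraries for YAP1. The low and the high values occurred in both groups. For CCN2 the same quantity stayed between 0.733 and 0.737. Fold changes between groups were therefore taken from the counts; the ratios and shares within a library that use FPKM are given with counts as well.

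None of the 10 genes passed an FDR of 0.05 between DOX+ and DOX– cells in edgeR's quasi-likelihood test, where 1.12% of the 13991 features tested passed (0.4% higher and 0.715% lower in DOX+ cells). All 10 passed the filter on low counts, with 414 to 43917 counts in any library. In 5 genes the log2 fold change was above 0 and in 5 below it, and its median was −0.004, against −0.002 over all features. Their mean CPM in DOX+ cells ranged from 84.6% to 107% of the DOX– mean. At an unadjusted p under 0.05, 1 gene was higher (TEAD1), where 7.31% of all features were, and 2 were lower (TEAD4 and CCN1), where 7.69% were, which makes 3 of 10 against 15% in either direction. The groups did not overlap for those 3 genes and YAP1, 4 of 10, against 20.3% of all features (9.73% higher and 10.6% lower). With DESeq2, 1 of the 10 passed an FDR of 0.05 (CCN1, lower), where 5.62% of the 9379 features to which it gave an adjusted p passed (2.77% higher and 2.85% lower). With limma-voom 0 of the 10 passed, where 1.1% of the 13991 features did (0.4% higher and 0.7% lower). Without DOX+ replicate 2 the count was 0 as well. For scale, COL1A1, the main fibrillar collagen chain of fibroblasts, fell by 0.69 on the log2 scale in the same fit (standard error 0.0217, edgeR adjusted p = 1.66e-09). In bulk RNA, fewer expressing cells and less RNA per cell cannot be told apart.

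**Figure D2:**
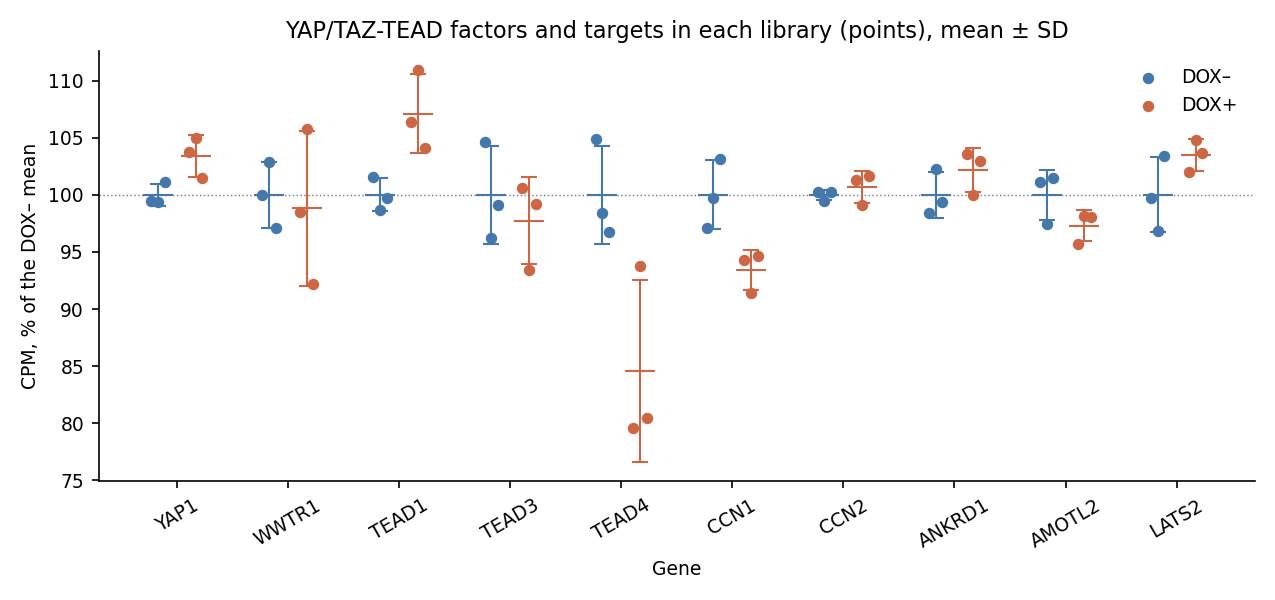
CPM of each of the 10 genes as a percentage of its DOX– mean, for 3 DOX– and 3 DOX+ libraries (points) with mean ± SD. The groups do not overlap for YAP1 and TEAD1 (higher in DOX+) and for TEAD4 and CCN1 (lower in DOX+), and TEAD4 has the lowest DOX+ mean, 84.6%; none passed an FDR of 0.05 in edgeR.

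YAP1 (ENSG00000137693, chr11:102110447-102233424), the founding coactivator of the pathway, was nearly level between groups. Its values were 299.6, 299.5 and 305 CPM in DOX– replicates 1 to 3 and 313, 316 and 306 CPM in DOX+ replicates 1 to 3. Every DOX+ library lay above every DOX– library, by less than 1 CPM for the closest pair. The log2 fold change was 0.05 (standard error 0.0324, edgeR adjusted p = 0.515), and the 95% interval of its percent change from the DOX– level ran from −1.501% to 8.54%. WWTR1 (ENSG00000018408, chr3:149517235-149736714), which encodes the paralogous coactivator TAZ, had 105, 108 and 102 CPM in DOX– libraries. Its DOX+ libraries had 104, 111 and 97.2 CPM, so the highest and the lowest of the 6 values were both in DOX+ cells. The log2 fold change was −0.02 (standard error 0.0511, edgeR adjusted p = 0.915), with a 95% interval from −8.47% to 6.67%. The sign for WWTR1 turned with library size scaling and without DOX– replicate 2 or DOX+ replicate 3. The balance of the coactivators was measured within each library as log2 of WWTR1 over YAP1 in FPKM. It was −1.28, −1.55 and −1.39 in DOX– and −1.61, −1.61 and −1.48 in DOX+ libraries, ranges that overlap (difference −0.157, two-sided exact permutation p = 0.2). With counts in place of FPKM the difference was −0.067. In FPKM it was −0.093 without DOX– replicate 1 and −0.23 without DOX– replicate 2.

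TEAD1 (ENSG00000187079, chr11:12674421-12944737), the TEAD most abundant in these cells, was at 279, 271 and 274 CPM in DOX– libraries and at 292, 305 and 286 CPM in DOX+ libraries. All DOX+ values lay above all DOX– values, with DOX+ replicate 2 the highest. The log2 fold change of 0.10 (standard error 0.0355) did not pass the threshold (edgeR adjusted p = 0.212), and its 95% interval before adjustment ran from 1.56% to 13.0%. With the trend of counts on transcript length removed the log2 fold change was 0.06, and without DOX+ replicate 2 it was 0.08. TEAD3 (ENSG00000007866, chr6:35473597-35497079) had 68.4, 62.9 and 64.9 CPM in DOX– and 65.8, 61.1 and 64.9 CPM in DOX+ libraries. The groups overlapped (log2 fold change −0.03, standard error 0.0482, edgeR adjusted p = 0.800), with an interval from −9.05% to 5.07%, and the sign turned without DOX– replicate 1. TEAD4 (ENSG00000197905, chr12:2959330-3040676), the least abundant of the 3, had the greatest difference among the 10 genes. Its values were 15.3, 14.4 and 14.1 CPM in DOX– libraries and 11.6, 13.7 and 11.7 CPM in DOX+ libraries. DOX+ replicate 2 lay close under the DOX– range and the other DOX+ libraries well below it. The log2 fold change was −0.24 with the widest standard error, 0.0930 (edgeR adjusted p = 0.243), and the 95% interval before adjustment ran from −26.4% to −2.74%. It was −0.32 without DOX+ replicate 2, with an edgeR adjusted p of 0.200.

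The make-up of the TEAD family was compared within each library, as the share of each paralog in the summed FPKM of TEAD1 to TEAD4; this needs no scaling between libraries. TEAD1 made up 43.3%, 42.5% and 44.8% in DOX– and 45.5%, 47.7% and 45.0% in DOX+ libraries. TEAD4 made up 11.3%, 10.6% and 10.2% in DOX– and 8.45%, 9.91% and 8.74% in DOX+ libraries. DOX+ replicate 2, which stood apart on the first principal component, had the highest TEAD1 share and the highest DOX+ share of TEAD4. Without it the TEAD1 difference was therefore smaller and the TEAD4 difference greater. For both paralogs the groups did not overlap, TEAD1 being higher by 2.53 percentage points and TEAD4 lower by a difference of −1.66 (two-sided exact permutation p = 0.1 for each, the smallest that 3 libraries against 3 allow, so this test cannot reach 0.05). TEAD2, which is not among the 10 genes, had 20.3% ± 1.97 (SD, n = 3) in DOX– and 20.3% ± 1.14 (SD, n = 3) in DOX+ cells. TEAD3 had 25.5% ± 1.37 (SD, n = 3) and 24.5% ± 1.49 (SD, n = 3), and for both TEAD2 and TEAD3 the groups overlapped. With counts in place of FPKM, the differences were 1.73 percentage points for TEAD1 and −0.707 for TEAD4. The counts behind 1 FPKM, relative to the median gene, also varied between libraries for these paralogs. They ran from 2.19 to 2.38 for TEAD1, 0.683 to 0.74 for TEAD2, 0.917 to 0.938 for TEAD3 and 0.477 to 0.499 for TEAD4. The part of this spread in the share differences was not tested.

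**Figure D3:**
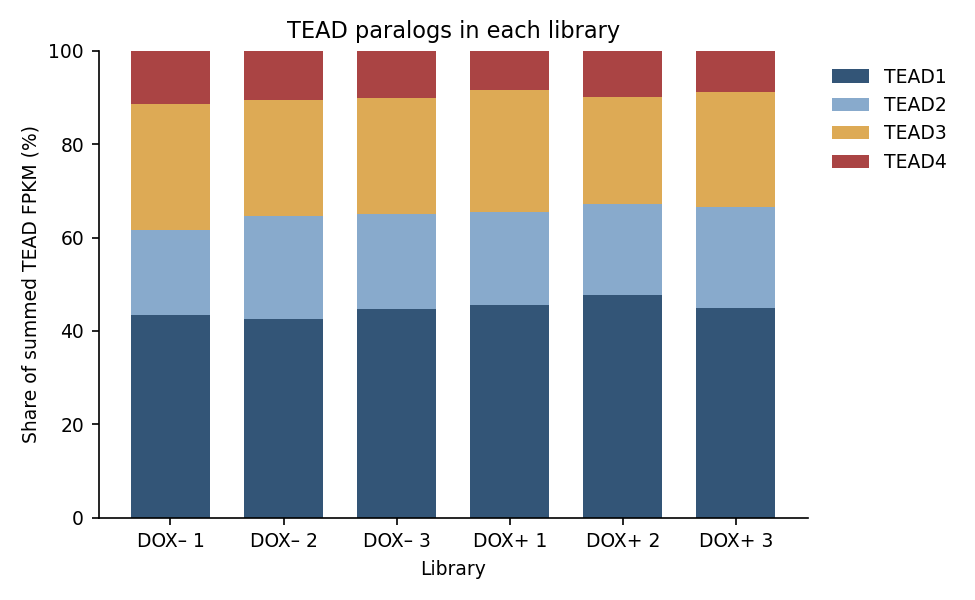
Stacked shares (%) of TEAD1, TEAD2, TEAD3 and TEAD4 in their summed FPKM, 1 bar per library. TEAD1 is the major part in every library (42.5% to 47.7%) and TEAD4 the minor one (8.45% to 11.3%).

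CCN1 (ENSG00000142871, chr1:85580761-85584589) and CCN2 (ENSG00000118523, chr6:131948176-131951372) encode secreted matricellular proteins and are the most used readouts of YAP and TAZ. CCN1 was at 709, 728 and 752 CPM in DOX– libraries and at 688, 667 and 691 CPM in DOX+ libraries. All DOX+ values lay below all DOX– values; the closest were DOX– replicate 1 and DOX+ replicate 3. The log2 fold change was −0.10 (standard error 0.0308, edgeR adjusted p = 0.160), and the 95% interval before adjustment ran from −10.8% to −2.16%. DESeq2 gave CCN1 an adjusted p of 0.0412, whereas across the 17 alternatives adjusted p-values lay between 0.0412 and 0.445 and log2 fold changes between −0.12 and −0.07. CCN2, whose promoter window held 3 TEAD motifs, was at 1196, 1187 and 1197 CPM in DOX– libraries. Its DOX+ libraries had 1209, 1182 and 1213 CPM, around the same level. The log2 fold change was 0.01 (standard error 0.0237, edgeR adjusted p = 0.893), with the narrowest 95% interval among the 10 genes, from −2.85% to 4.31%. ANKRD1 (ENSG00000148677, chr10:90912096-90921087), a nuclear and sarcomeric ankyrin-repeat protein induced by stretch in muscle, had 40.4, 41.9 and 40.7 CPM in DOX– and 42.5, 41.0 and 42.2 CPM in DOX+ libraries. The ranges overlapped (log2 fold change 0.03, standard error 0.0475, edgeR adjusted p = 0.807), with an interval from −4.84% to 9.73%. Hence of the targets with 2 or more TEAD motifs in their windows, the groups overlapped for both CCN2 and ANKRD1. CCN1, the only target whose groups did not overlap, had no window and could not be placed in or out of this class.

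AMOTL2 (ENSG00000114019, chr3:134355347-134375479), an angiomotin family protein that binds YAP and TAZ outside the nucleus, had 377, 363 and 378 CPM in DOX– libraries and 356, 366 and 365 CPM in DOX+ libraries. The groups overlapped through DOX– replicate 2 (log2 fold change −0.04, standard error 0.0324, edgeR adjusted p = 0.609), with a 95% interval from −7.30% to 2.14%. LATS2 (ENSG00000150457, chr13:20973036-21061586), the kinase that phosphorylates YAP and TAZ, had 118, 115 and 122 CPM in DOX– libraries and 121, 124 and 123 CPM in DOX+ libraries. DOX– replicate 3 lay within the DOX+ range (log2 fold change 0.05, standard error 0.0403, edgeR adjusted p = 0.606), and the interval ran from −2.58% to 9.93%. The feedback genes thus had log2 fold changes of opposite sign, each with an interval that includes 0.

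**Figure D4:**
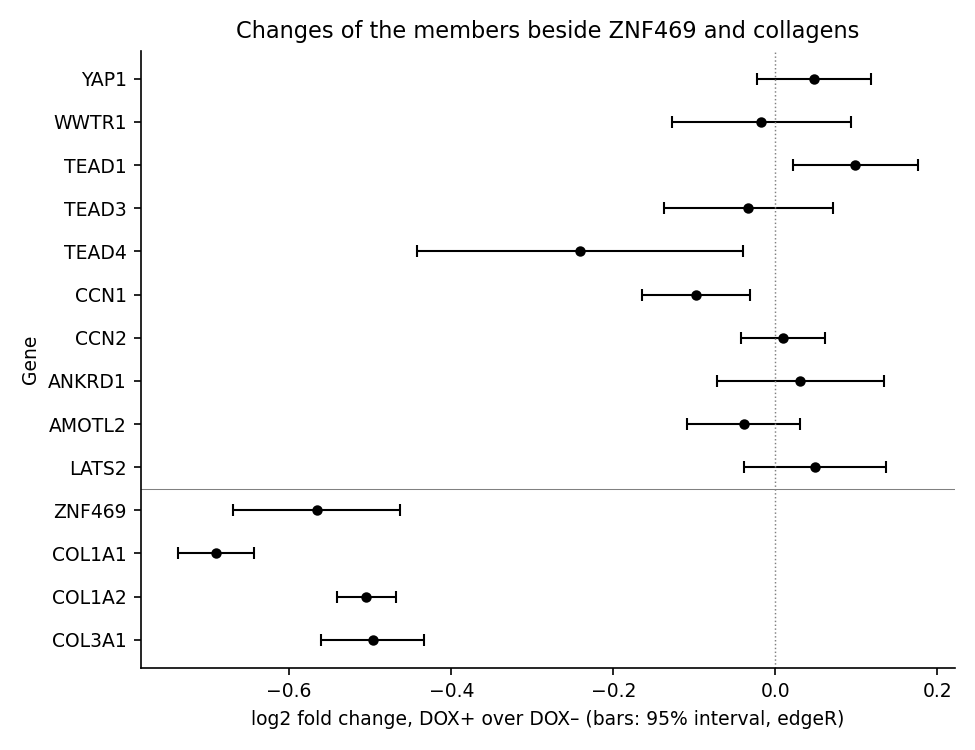
Log2 fold changes (DOX+ over DOX–) with 95% intervals from edgeR for the 10 genes, with ZNF469, COL1A1, COL1A2 and COL3A1 below the line for scale. The 10 genes lie between −0.24 and 0.10, and the intervals of TEAD1, TEAD4 and CCN1 leave out 0 before adjustment over all features; COL1A1 lies at −0.69.

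A signature of 22 YAP and TAZ targets, recalled from the literature without its source at hand, holds CCN1, CCN2, ANKRD1, AMOTL2 and LATS2. All 22 genes were tested, 12 were higher and 10 lower, and 0 passed an FDR of 0.05 in either direction by edgeR (1 higher and 2 lower at an unadjusted p under 0.05). Over all features the shares at that unadjusted p were 7.31% higher and 7.69% lower. Their median log2 fold change was 0.02, against −0.002 over all features, and the range was −0.13 to 0.10. With the transcript length trend removed, 8 were higher and 14 lower. DESeq2, which called 2.85% of features lower, called 2 of the 22, both lower: CCN1 and AXL, a receptor tyrosine kinase that was named after its value was seen. AXL was at 552, 523 and 574 CPM in DOX– and at 503, 511 and 509.9 CPM in DOX+ libraries, with no overlap (log2 fold change −0.11, standard error 0.0354, edgeR adjusted p = 0.160). Of the 6 CCN genes, 4 passed the filter on low counts and 0 passed the threshold. CCN3 and CCN4, named after their values were seen, were low, at means of 2.60 and 0.375 CPM in DOX– cells.

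Further regulators of the pathway, not all of them upstream of YAP and TAZ, were covered by 27 genes. Among them were the MST kinases, LATS1, cofactors of these kinases, scaffolds, upstream kinases, LIM-domain proteins that bind LATS, TEAD2 and TEAD cofactors. LATS2 is not on this list. All 27 were tested, 17 were higher and 10 lower, and 0 passed an FDR of 0.05 by edgeR (6 higher and 2 lower at an unadjusted p under 0.05). Of all features, 7.31% were higher and 7.69% lower at that unadjusted p, and 1.12% passed the FDR. The median log2 fold change was 0.05, and it was 0.02 with the transcript length trend removed. PTPN14, named after its value was seen, is also on the target list. It was the 1 target, and 1 of the 6 regulators, higher at an unadjusted p under 0.05. Of the core genes, named with their values already seen, STK3 (MST2) lay at 0.07, STK4 (MST1) at 0.05, SAV1 at 0.03 and LATS1 at 0.06 on the log2 scale, each less than 1 standard error from 0 (edgeR adjusted p from 0.698 to 0.812). The LATS cofactor MOB1A lay at 0.11 (standard error 0.0629, edgeR adjusted p = 0.425), with overlapping groups. The most abundant regulators per length were FRMD6, a FERM-domain protein of the cell cortex, and MAP4K4, a kinase that acts on LATS. FRMD6 had 544, 546 and 512 CPM in DOX– and 578, 617 and 564 CPM in DOX+ libraries, with no overlap (log2 fold change 0.14, standard error 0.0387, edgeR adjusted p = 0.126). MAP4K4 had 278, 279 and 286 CPM in DOX– and 271, 266 and 277 CPM in DOX+ libraries, so the groups were separated by less than 1 CPM (log2 fold change −0.05, edgeR adjusted p = 0.530).

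Some regulators, named after their values were seen, came closer to the threshold or passed it in other fits. AJUBA, a LIM-domain protein that restrains LATS, had the smallest p of the list. Its values were 113, 112 and 115 CPM in DOX– and 96.2, 97.0 and 106 CPM in DOX+ libraries, without overlap (log2 fold change −0.18, standard error 0.0459, edgeR adjusted p = 0.0826). It passed with no filter on low counts, with DESeq2, with the replicate block and without DOX+ replicate 3. MOB1B, a cofactor of LATS, had 62.1, 63.8 and 55.5 CPM in DOX– and 69.2, 77.6 and 64.8 CPM in DOX+ libraries (log2 fold change 0.22, standard error 0.0675, edgeR adjusted p = 0.147). DOX+ replicate 2 was the highest of the 6. TAOK1, a kinase upstream of MST, and LIMD1, another LIM-domain protein, had log2 fold changes of 0.16 (standard error 0.0446) and 0.14 (standard error 0.0420), with edgeR adjusted p-values of 0.126 and 0.137. DESeq2 called FRMD6, LIMD1, MOB1B and TAOK1 higher and AJUBA lower, 5 of 27 against 5.62% of all features with an adjusted p.

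**Figure D5:**
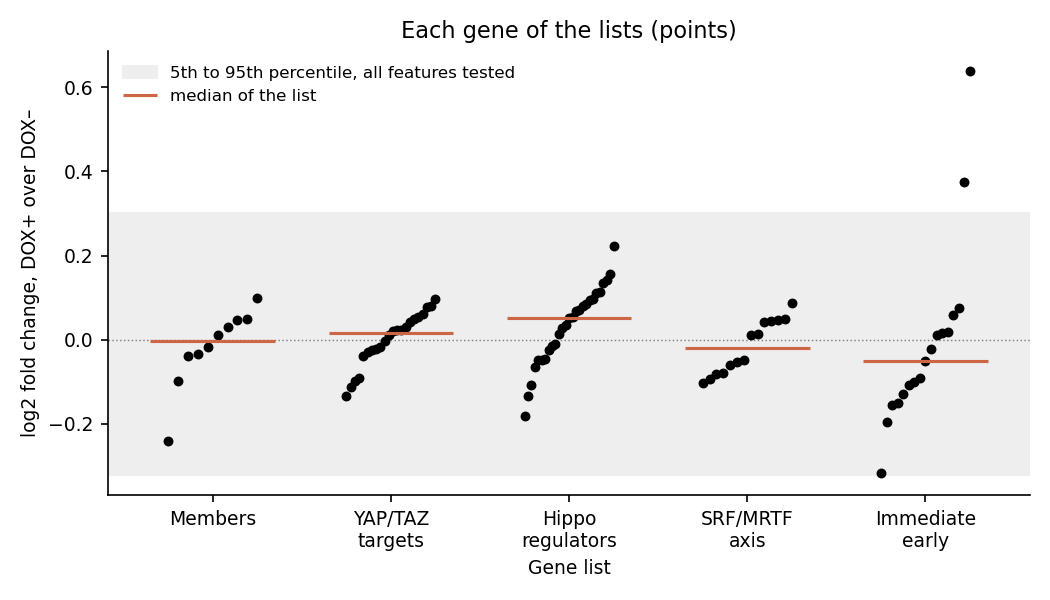
Log2 fold changes (DOX+ over DOX–) of every tested gene (points) in 5 gene lists, with each list's median and, in grey, the 5th to 95th percentile of all features tested (−0.322 to 0.302). The 10 members, the 22 targets, the 27 Hippo regulators and the SRF/MRTF genes lie inside the grey band, and EGR3 and FOS, both scarcely expressed and named after their values were seen, lie above it.

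Over the 6 libraries, JUNB, EIF4A3 and GDPD3 followed the mean of the standardised log2 CPM of CCN1 and CCN2 most closely, with Pearson r of 0.9994, 0.9952 and 0.9916. CCN1 and CCN2 themselves correlated at −0.05 over these libraries, so a feature close to their mean does not follow each of them that closely. The points share their library scaling, and 78 features reached an r of 0.95, so the values describe these libraries only. JUNB had a log2 fold change of −0.09 (standard error 0.0848) and EIF4A3 one of −0.03 (standard error 0.0467), neither past the threshold. GDPD3 was scarcely expressed, at a mean of 0.674 CPM in DOX– cells.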

How the data were processed

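RNA-seq was performed on poly(A)-selected RNA of 3 DOX– and 3 DOX+ libraries. Per the study's methods, the authors filtered reads on quality and aligned them to GRCh38 with HISAT2 and StringTie; versions and the annotation release are not given in the sources used here. The authors deposited whole read counts per gene without normalization and FPKM values; 17 lines without a gene were dropped. Unannotated loci took 0.938% to 0.996% of counts. GENCODE 44 gave coordinates and lengths.

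Counts were tested with edgeR 4.0.16 (R 4.3.3): filterByExpr (minimum count 10), TMM factors from 0.988 to 1.01, quasi-likelihood test without covariates, with p-values adjusted by Benjamini-Hochberg across all 13991 features. The standard error was taken as the size of the log2 fold change divided by the root of F. The scripts were tested on simulated data. Sample titles gave the condition and replicate number. The 10 genes and all lists were chosen with earlier results of these data known. Named genes were the 10, ZNF469, any list gene past the threshold, the 2 most abundant per list, and the 3 features most like CCN1 and CCN2. Other genes given with values, including COL1A1 for scale and TEAD2 for the family shares, were named with their values already seen. Alternatives covered scaling, filters, DESeq2 1.42.0, limma-voom (limma 3.58.1), an FDR of 0.01, the replicate block, each library left out, and a lowess length trend (span 0.3, 12771 features); a table without unannotated loci was added after the data were seen. With 34057675 to 36120260 counts per library, counting error is small except for low genes such as TEAD4.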

Additional observations from a re-analysis of the deposited data

How the results depend on the processing

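Of the log2 fold changes of the 10 genes under 17 alternatives, 165 kept direction and side of the threshold; CCN1 passed with DESeq2 (adjusted p = 0.0412), WWTR1 turned sign with library size scaling (0.004), without DOX– replicate 2 (0.004) and without DOX+ replicate 3 (0.031), within −0.068 to 0.031 over libraries left out, and TEAD3 turned without DOX– replicate 1 (0.001), within −0.059 to 0.001. The cause was not tested. The count of the 10 genes called higher was 0 in every alternative, and lower 0 except for 1 with DESeq2. ZNF469 stayed lower past the threshold in all 17.

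Over all features, main calls were 56 higher and 100 lower. Higher calls numbered 88 with library size scaling, 127 without a filter, 260 with DESeq2, 19 at an FDR of 0.01 and 135 with the replicate block; lower calls numbered 163 without a filter, 267 with DESeq2, 54 at an FDR of 0.01 and 157 with the block. With 1 library left out they ranged from 20 to 69 higher and from 54 to 92 lower. Library size scaling shifted the median log2 fold change of all features by 0.0208. Replicate numbers do not pair the libraries: deviations of same-numbered libraries correlated at −0.024, −0.035 and 0.036, and the block changed no call among the 10 genes.

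Of the 27 Hippo regulators, DESeq2 called 4 higher and 1 lower, where it called 2.77% of features higher and 2.85% lower. With the replicate block 3 were called higher and 1 lower, against 135 and 157 of 13991 features. Without a filter 1 was called lower, against 163 of 18664 features. With 1 library left out, 0 to 1 were called lower. Among the 22 targets DESeq2 called 2 lower, and among the CCN genes 1 lower. Of the SRF/MRTF genes, TPM1 was called higher with the length trend removed (1 gene) and MYH9, named after its value was seen, lower without DOX– replicate 2 (0 to 1 lower over libraries left out). The difference in the TEAD2 share turned from 0.093 percentage points to −0.916 without DOX– replicate 1 and to −0.525 without DOX+ replicate 3, within a range of −0.916 to 1.05 over libraries left out. Depth limits TEAD4 most, at 414 to 518 counts per library.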

Other observations

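CCN1, CCN2 and ANKRD1 also respond to serum response factor (SRF) with its MRTF coactivators, and CCN1 is an immediate early gene, so genes of these programmes were read in the same fit. Of 14 genes of the SRF/MRTF axis, 7 were higher and 7 lower (median on the log2 scale −0.02), and by edgeR 0 passed an FDR of 0.05 (2 higher and 3 lower at an unadjusted p under 0.05; DESeq2 0). At that unadjusted p, 7.31% of all features were higher and 7.69% lower. TAGLN, an actin-binding protein of contractile cells, was the most abundant per length, at 2329 ± 17.6 FPKM (SD, n = 3) in DOX– and 2391 ± 73.8 FPKM (SD, n = 3) in DOX+ libraries. By counts it differed by 0.01 on the log2 scale (standard error 0.0248, edgeR adjusted p = 0.891). TPM1, a tropomyosin, had 1613, 1636 and 1595 CPM in DOX– and 1660, 1678 and 1674 CPM in DOX+ libraries, without overlap (log2 fold change 0.05, standard error 0.0220, edgeR adjusted p = 0.311). Named with their values already seen, SRF itself stood at 0.01 (standard error 0.0414), MRTFA at −0.09 (standard error 0.0524) and MRTFB at −0.06 (standard error 0.0908).

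Of 18 immediate early genes 17 were tested, 7 higher and 10 lower (median on the log2 scale −0.05), with 0 past an FDR of 0.05 in edgeR (0 higher and 3 lower at an unadjusted p under 0.05; DESeq2 0). The shares of all features at that unadjusted p were 7.31% higher and 7.69% lower. FOSL1, an AP-1 subunit and the most abundant of them per length, had 303, 289.7 and 325 CPM in DOX– and 281, 267 and 292 CPM in DOX+ libraries (log2 fold change −0.13, standard error 0.0462, edgeR adjusted p = 0.213), ranges that overlapped. DUSP1, a phosphatase of MAP kinases, stood at 0.08 on the log2 scale (standard error 0.0392, edgeR adjusted p = 0.392).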
